A study of Mus musculus with 31 samples.

Results

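The aryl hydrocarbon receptor and its classical targets were followed here as 7 genes: the receptor gene Ahr, its partner Arnt, the repressor Ahrr, and the target genes Cyp1a1, Cyp1b1, Tiparp and Aldh3a1. They were taken by name from 19938 genes measured on 31 expression arrays of whole lung, and each of the 7 has 1 probe set that carries its symbol alone. All mice were males of an age given as 6 weeks, of the strain AKR or C57BL/6 (C57 from here on). They breathed cigarette smoke or room air, and in 8 groups an instillation of lipopolysaccharide (LPS, bacterial endotoxin) in saline, or of saline alone, followed. In AKR, smoke then saline, room air then saline and room air then LPS have 3 arrays each, and smoke then LPS has 2. In C57, smoke then saline, room air then saline, smoke then LPS and room air then LPS have 3 arrays each. Room air without instillation is represented by 2 AKR arrays titled 3 weeks, 3 AKR arrays titled 6 weeks and 3 C57 arrays titled 6 weeks. The titles give 3 weeks to the instilled mice whereas the series description gives them 6 weeks, so the exposure time is uncertain. The titles call the replicates biological and say nothing further of the animals behind them, so p-values measure the spread between these samples. The labels do not say at which time of the exposure the age applies.

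The receptor encoded by Ahr is a ligand-activated transcription factor of the basic helix-loop-helix PAS family, held in the cytosol by heat-shock protein chaperones. Polycyclic aromatic hydrocarbons, which cigarette smoke contains, are among its ligands. Once bound it enters the nucleus, pairs with the protein of Arnt and binds xenobiotic response elements, whose core is GCGTG. Cyp1a1 and Cyp1b1 encode cytochromes P450 that oxidise such hydrocarbons, Tiparp encodes a mono-ADP-ribosyltransferase (PARP7) that restrains the receptor, Aldh3a1 encodes an aldehyde dehydrogenase, and the protein of Ahrr competes with the receptor for its partner. As background from mouse genetics, C57BL/6 carries a high-affinity allele of Ahr and AKR a low-affinity one; ligand binding was not measured here.

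The values are log2 intensities. The arrays form sets with different distributions: 18 arrays with medians of 6.96 to 7.10 (all C57 arrays and the AKR room air arrays titled 6 weeks) and 13 with medians of 6.80 to 6.90 (the other AKR arrays). Arrays of 1 group correlated at 0.899 to 0.993. A pair of C57 arrays went against their labels in LPS-response genes. The array labelled C57 smoke saline 3 had 12.47 for Saa3, a serum amyloid A gene, against 6.10 and 6.36 on the other arrays of its group. The array labelled C57 smoke LPS 3 had 6.06 for Saa3, against 12.64 and 12.85. The array labelled C57 smoke LPS 3 also stood apart in 10 liver genes, chosen after their values were seen: all 10 were higher there than on the other 30 arrays, with albumin (Alb) at 13.27 on that array against a range of 4.95 to 6.92. Whether these 2 arrays were exchanged or mixed was not tested, and their values stand under their labels. The smoke differences of this pathway's genes within C57 are given with and without them, as are counts at an unadjusted p. This choice was made after the data were seen. Medians, gene lists and genes outside the pathway are given with both arrays in place.

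Genes entered the test if 3 or more arrays put them over the 40th percentile of their own probe sets, which held for 14705 genes and for 6 of the 7 genes of this pathway. Ahr, Arnt, Cyp1b1, Tiparp and Aldh3a1 were above that percentile on all 31 arrays. Ahrr was above it on 0 of 31, with intensities of 4.61 to 5.50, and was not tested. It had 4.87 to 5.19 on AKR smoke saline arrays and 4.61 to 5.06 on AKR air saline arrays, and 5.05 to 5.39 on C57 smoke saline arrays and 5.15 to 5.47 on C57 air saline arrays, with overlap in both strains. Cyp1a1 was above it on 7 of 31 arrays, all of them C57: 3 of smoke saline, 2 of smoke LPS, 1 of air saline and 1 of room air alone. Its entry into the test therefore rests on the strain and the exposure in which it is high, and on every AKR array its intensity was in the range of dim probe sets.

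The start regions of these genes were read from RefSeq (GRCm38.p6) for the core of the response element, GCGTG, on either strand (CACGC on the other), in the 250 bases before the start of the transcript. Of the 7 genes, 5 matched an entry (not Ahr and Aldh3a1). All 5 windows held the core, which is present in 28.2% of the 32851 windows of that length. A match is a description of letters and not a site of binding. The windows of the target genes that the results turn on, and that of the repressor gene with its 3 copies, are shown with the core in capitals, 5′ to 3′ on the strand of the gene. The window of Cyp1a1 lies at chr9:57697363-57697612 (plus strand), with the core starting 54 bases before the start. It falls inside the span annotated for the gene (57687928 to 57703824), so this start is not the first of the gene. Bases further upstream were not read for any gene. Tiparp lies at chr3:65528197-65528446 (plus strand), with the core 170 bases before the start. Cyp1b1 lies at chr17:79715062-79715311 (minus strand), with the core 76 bases before the start. Ahrr lies at chr13:74292332-74292581 (minus strand), with copies 107, 82 and 27 bases before the start. In Tiparp and Cyp1b1 the core reads on the opposite strand.
Cyp1a1: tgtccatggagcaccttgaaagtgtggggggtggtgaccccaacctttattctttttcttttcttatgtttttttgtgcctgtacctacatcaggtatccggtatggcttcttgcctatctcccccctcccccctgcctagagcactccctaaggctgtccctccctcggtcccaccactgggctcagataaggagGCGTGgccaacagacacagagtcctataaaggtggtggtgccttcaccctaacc
Tiparp: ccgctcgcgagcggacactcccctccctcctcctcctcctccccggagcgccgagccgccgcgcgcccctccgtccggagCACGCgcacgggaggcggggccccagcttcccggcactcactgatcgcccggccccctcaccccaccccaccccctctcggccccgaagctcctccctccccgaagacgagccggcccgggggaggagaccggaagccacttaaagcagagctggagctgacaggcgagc
Cyp1b1: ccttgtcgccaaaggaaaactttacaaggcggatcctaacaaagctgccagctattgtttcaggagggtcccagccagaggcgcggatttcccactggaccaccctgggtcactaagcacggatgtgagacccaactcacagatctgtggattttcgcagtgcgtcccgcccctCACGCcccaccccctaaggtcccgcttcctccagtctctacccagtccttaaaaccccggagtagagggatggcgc
Ahrr: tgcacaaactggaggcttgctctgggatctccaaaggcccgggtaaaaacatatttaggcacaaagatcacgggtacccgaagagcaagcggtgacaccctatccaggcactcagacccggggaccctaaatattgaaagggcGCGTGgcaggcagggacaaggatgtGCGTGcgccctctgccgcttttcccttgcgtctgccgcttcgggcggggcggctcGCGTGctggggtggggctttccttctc

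In C57 lungs instilled with saline, the target genes Cyp1a1, Tiparp and Cyp1b1 stood higher after smoke than after air on every array, and so did Arnt, yet none of them passed the test across all genes. Cyp1a1 had 7.50, 6.90 and 6.95 on the smoke arrays, against 6.06, 6.16 and 6.59 on the air arrays. The lowest smoke array lay above the highest air array. The log2 fold change of Cyp1a1 was 0.85 ± 0.24 (SE; 1.80-fold) with an adjusted p of 0.653 (limma, Benjamini-Hochberg over 14705 genes), so the 95% interval of 0.36 to 1.34 lies above 0 for this gene taken alone while the gene does not pass among all genes. By p it stood at place 33 of 14705. Cyp1a1 entered the test only through C57 arrays, most of them smoke arrays, so that place gives no further support. Without the array labelled smoke saline 3 the difference was 0.93 ± 0.27. Cyp1a1 was above the 40th percentile on only 1 of the 3 air arrays, so its fold is not exact.

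Tiparp, the PARP7 gene, had 9.21, 9.12 and 9.56 on the C57 smoke saline arrays, against 8.85, 8.73 and 8.98 on the C57 air saline arrays. These groups did not overlap, and the highest smoke value is on the array labelled smoke saline 3, on which LPS-response genes were high. The difference was 0.44 ± 0.14 (adjusted p = 0.723, limma), and without that array it was 0.31 ± 0.15 (adjusted p = 1, limma). Cyp1b1 had 7.61, 7.43 and 7.81 after smoke, against 7.38, 7.03 and 7.05 after air, again without overlap. The highest smoke value is again on the array labelled smoke saline 3. The difference of Cyp1b1 was 0.46 ± 0.22 (adjusted p = 0.800, limma), and 0.37 ± 0.25 without that array.

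The genes of the receptor complex differed less between smoke and air in C57 saline lungs. Arnt had 10.85, 10.58 and 10.73 after smoke, against 10.56, 10.58 and 10.53 after air. These groups were apart by less than 2 decimals show, and the difference was 0.16 ± 0.09 (adjusted p = 0.822, limma), and 0.16 ± 0.10 without the array labelled smoke saline 3. Ahr had 11.06, 10.72 and 10.46 after smoke, against 10.80, 10.83 and 10.90 after air, with air values inside the range of the smoke values. The Ahr difference was -0.09 ± 0.17 with that array and 0.052 ± 0.18 without it. Aldh3a1 had 7.69, 8.15 and 8.31 after smoke, against 7.99, 8.43 and 7.97 after air, and these groups overlapped as well. The 95% interval of the Aldh3a1 difference was -0.76 to 0.59, and without that array the value was -0.21 ± 0.37.

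Over the C57 saline comparison 0 of the 6 tested genes passed, where 0% of all genes did, and 3 of 6 had an unadjusted p under 0.05 (limma), where 906 genes (6.16%) did. Without the array labelled smoke saline 3, 1 of 6 did, Cyp1a1, where 342 genes (2.33%) did. In 4 of 6 the groups did not overlap and smoke was higher, a pattern of 8.65% of all genes, and the same 4 genes lay apart without that array, where 13.6% of all genes did. The median log2 fold change of the 6 was 0.30, beside 0.03 over all genes tested.

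**Figure D1:**
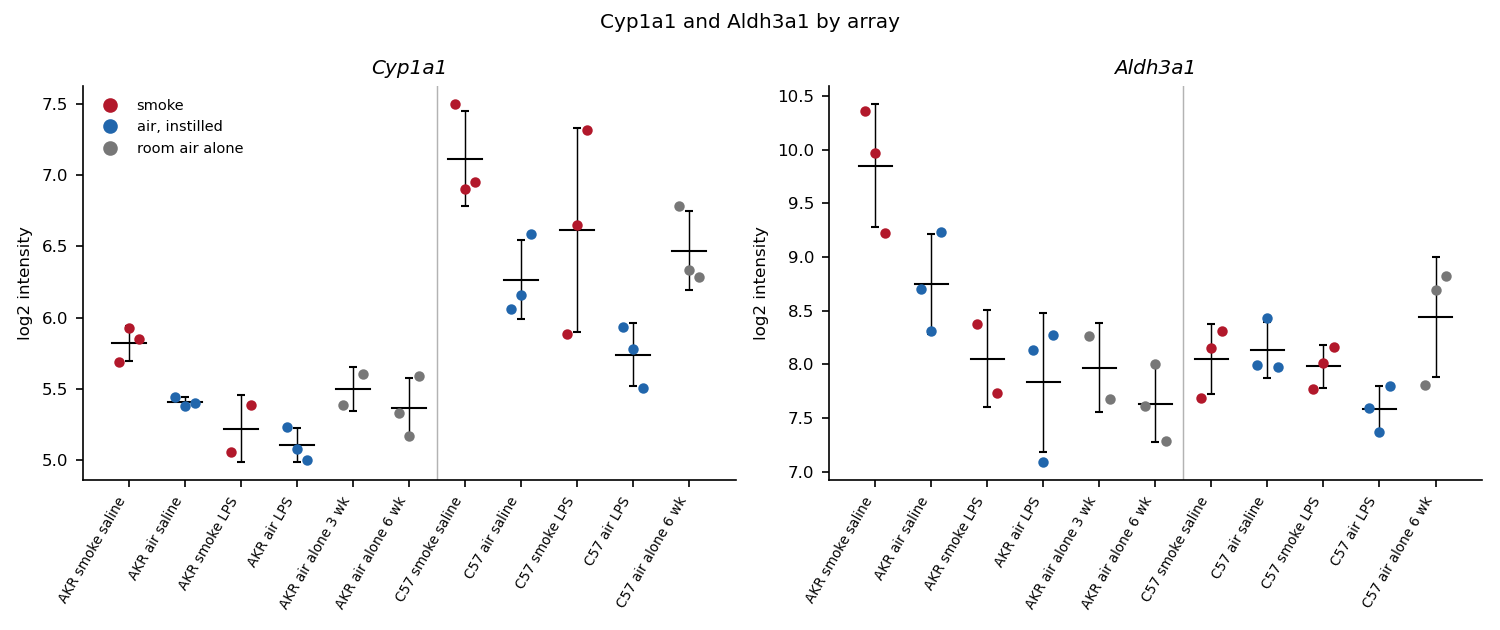
Log2 intensity (vertical axis) of Cyp1a1 and Aldh3a1 on each array by group, with points for arrays and a black line and bar for mean and SD. In C57, Cyp1a1 on the smoke saline arrays (6.90 to 7.50) lies above the air saline arrays (6.06 to 6.59), and in AKR the highest Aldh3a1 values, 10.36 and 9.97, are on smoke saline arrays.

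In AKR lungs instilled with saline, the gene with the largest difference among the 6 was Aldh3a1, and Cyp1a1 was higher on every smoke array within its dim range. Aldh3a1 had 10.36, 9.97 and 9.23 on the smoke arrays, against 8.70, 8.31 and 9.24 on the air arrays. A pair of the smoke arrays lay above all others of the series, while the third smoke array was level with the highest air array, so the groups overlapped. The log2 fold change was 1.11 ± 0.33 (2.15-fold), with an adjusted p of 0.307 (limma), which does not pass. Over the alternatives run it was 0.85 to 1.42, with adjusted p between 0.063 and 0.993.

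Cyp1a1 had 5.69, 5.93 and 5.85 on the AKR smoke saline arrays, against 5.45, 5.38 and 5.40 on the AKR air saline arrays. The groups did not overlap, and the difference was 0.41 ± 0.24 (adjusted p = 0.861, limma). All 6 values lie below the 40th percentile of their arrays (6.18 to 6.28 in this set). Cyp1b1 had 8.11, 8.29 and 7.35 after smoke, against 7.58, 7.20 and 7.76 after air. A pair of smoke arrays was high and the third lay among the air arrays, the same arrays as for Aldh3a1, and the difference was 0.41 ± 0.22 (adjusted p = 0.854, limma).

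Arnt was higher on the 3 AKR smoke saline arrays (10.20 to 10.22) than on the 3 air saline arrays (10.06 to 10.11), by 0.12 ± 0.09 (adjusted p = 0.937, limma). Ahr had 10.06, 10.20 and 10.33 after smoke, against 9.90, 9.91 and 10.10 after air, with 1 air array inside the smoke range. Its difference was 0.23 ± 0.17. Tiparp had 8.72, 8.69 and 8.77 after smoke, against 8.48, 8.73 and 8.65 after air, with overlap, and its difference of 0.11 has a 95% interval of -0.19 to 0.40. In this comparison 0 of 6 genes passed, where 5 genes (0.034%) did, and 1 of 6 had an unadjusted p under 0.05 (limma), where 6.42% of genes did. In 2 of 6 the groups did not overlap with smoke higher, a pattern of 6.39% of all genes. The median of the 6 was 0.32, beside 0.01 over all genes.

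Of the other known targets of the receptor, 7 were tested and 1 passed in AKR saline lungs. This was Nqo1, a quinone reductase that the NRF2 pathway also controls, with 8.84, 8.61 and 7.53 on the smoke arrays, against 7.0, 6.85 and 7.30 on the air arrays. The groups did not overlap, and Nqo1 rose by 1.28 ± 0.22 (2.43-fold, adjusted p = 0.0314, limma). Without smoke saline 3 it was 1.68. It passed in 8 of 14 alternatives, and failed with arrays centred on their medians (adjusted p = 0.0518, limma), with only the groups compared (0.640), and without smoke saline 1 (adjusted p = 0.213, limma), smoke saline 2 (0.326), air saline 1 (0.0858) or air saline 2 (0.175). In C57 saline lungs Nqo1 had 7.33, 7.37 and 6.93 after smoke, against 7.41, 7.38 and 7.38 after air. The lowest of these, 6.93, is on the array labelled smoke saline 3. With that array included, the smoke response of Nqo1 differed between strains by 1.46 ± 0.32 (AKR minus C57), which did not pass (adjusted p = 0.395, limma). In AKR the smoke arrays numbered 1 and 2 were thus high in Aldh3a1, Cyp1b1 and Nqo1 together, and the array numbered 3 was lower in all of them.

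Aldh3a1 has known expression in airway epithelium as well as in response to the receptor, and the markers of other cell types are given beside it. The mean of 7 club cell markers, relative to the series mean on the log2 scale, was 0.95, 0.37 and 0.80 on the AKR smoke saline arrays, against 0.47, -0.40 and 0.77 on the air arrays. None of the 7 passed. The mean of 3 tested markers of basal and squamous epithelium, of 8 fixed, was 0.30, 0.16 and 0.84 after smoke, against -0.03, -0.20 and -0.23 after air, without overlap and with none of the 3 passing. Neither list orders the 3 smoke arrays as Aldh3a1 does. Other lists do: ciliated cell markers were at 0.88, 0.63 and 0.29 on the smoke arrays, against 0.54, 0.23 and 1.22 on the air arrays. Heart muscle markers were at 1.06, 0.50 and -0.45 after smoke, against 1.32, -0.16 and 1.70 after air. In both lists, as in Aldh3a1, smoke array 1 is the highest of its group and array 3 the lowest, and air array 3 is the highest of its group and array 2 the lowest. Endothelial markers ran the other way, at -0.47, -0.51 and 0.07 after smoke, against -0.11, 0.13 and -0.81 after air. The means of type 1 alveolar markers (-0.35, -0.39 and 0.05 after smoke, against -0.14, 0.08 and -0.74 after air) and type 2 alveolar markers (-0.35, -0.48 and -0.09 after smoke, against -0.01, -0.08 and -0.50 after air) were also highest on smoke array 3 and lowest on air array 3. None of the markers of these 5 lists passed, and the part of any of these cell types in the Aldh3a1 values was not tested. In whole lung, fewer cells of a type and less RNA per cell cannot be told apart.

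**Figure D2:**
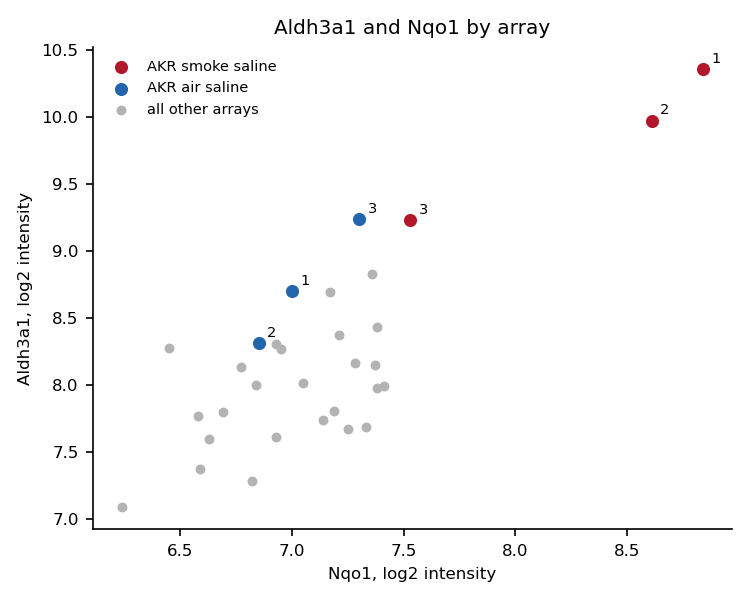
Log2 intensity of Aldh3a1 (vertical axis) against Nqo1 (horizontal axis), 1 point per array, with replicate numbers on the AKR saline groups. The AKR smoke saline arrays 1 and 2 (Aldh3a1 10.36 and 9.97, Nqo1 8.84 and 8.61) lie apart from the other 29 arrays, and smoke saline 3 lies beside the air saline arrays.

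After LPS, Cyp1a1 was again higher after smoke in C57, and in AKR no target gene stood apart. Cyp1a1 had 5.89, 6.65 and 7.32 on the C57 smoke LPS arrays, against 5.94, 5.78 and 5.51 on the C57 air LPS arrays. The lowest smoke array lay inside the air range. Cyp1a1 was above the 40th percentile on 0 of the 3 air arrays, so its fold is not exact. The difference was 0.88 ± 0.24 (1.84-fold, 95% interval 0.39 to 1.36), and although it had the smallest p of all 14705 genes, its adjusted p was 0.9999 (limma). The highest value, 7.32, belongs to the array labelled smoke LPS 3, which had the high liver transcripts and low LPS-response genes. Without that array the difference was 0.53 ± 0.21 (adjusted p = 0.9999, limma), and without smoke LPS 1 it was 1.24 ± 0.21 and passed (adjusted p = 0.0125, limma). The fit without smoke LPS 1 drops the lowest smoke value and keeps the array labelled smoke LPS 3. Cyp1a1 also entered the test only through C57 arrays, most of them smoke arrays, so its place and that pass give no further support. On the array labelled smoke LPS 3, Cyp1a2, a related P450 gene typical of liver, had 7.61, against 4.47 to 5.25 on the other 30. The part of liver RNA in the Cyp1a1 value of that array was not tested.

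**Figure D3:**
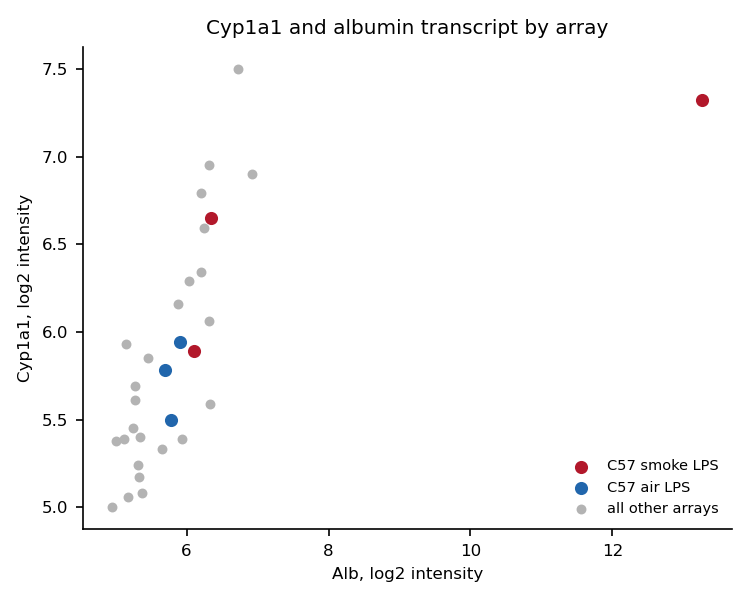
Log2 intensity of Cyp1a1 (vertical axis) against the albumin gene Alb (horizontal axis), 1 point per array. The C57 smoke LPS array with Alb at 13.27 has Cyp1a1 at 7.32, while the other 30 arrays have Alb between 4.95 and 6.92.

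The other genes differed little between smoke and air after LPS in C57. Tiparp had 9.55, 9.49 and 9.12 after smoke, against 9.34, 9.66 and 9.40 after air, with overlap. Aldh3a1 had 7.77, 8.01 and 8.16 after smoke, against 7.59, 7.37 and 7.80 after air, with 1 smoke array inside the air range, and its difference was 0.39 ± 0.33. Cyp1b1, Arnt and Ahr differed by -0.11, -0.01 and 0.14, each within its standard error. Without the array labelled smoke LPS 3 the differences were 0.050 for Tiparp, 0.30 for Aldh3a1, -0.055 for Cyp1b1, -0.070 for Arnt and -0.079 for Ahr. In C57 after LPS 0 of 6 genes passed, where 0% of all genes did, and 1 of 6 had an unadjusted p under 0.05 (limma), where 1.48% did. Without that array it was again 1 of 6, Cyp1a1, where 2.05% of genes did.

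In AKR after LPS, with 2 smoke arrays, Cyp1a1 had 5.06 and 5.39 after smoke, against 5.24, 5.08 and 5.0 after air, and these overlapped. Aldh3a1 had 8.37 and 7.74 after smoke, against 8.13, 7.09 and 8.27 after air, again with overlap. Ahr had 10.02 and 10.24 after smoke, against 9.68, 9.78 and 9.82 after air, without overlap, and its difference was 0.37 ± 0.19 (adjusted p = 0.344, limma). Arnt also stood higher without overlap, by 0.12 ± 0.10. Among the 6 genes 0 passed, where 1 gene (0.0068%) did, and 0 of 6 had an unadjusted p under 0.05, where 15.9% of genes did. Groups apart with smoke higher were found for 2 of 6, where 23.9% of all genes showed it.

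**Figure D4:**
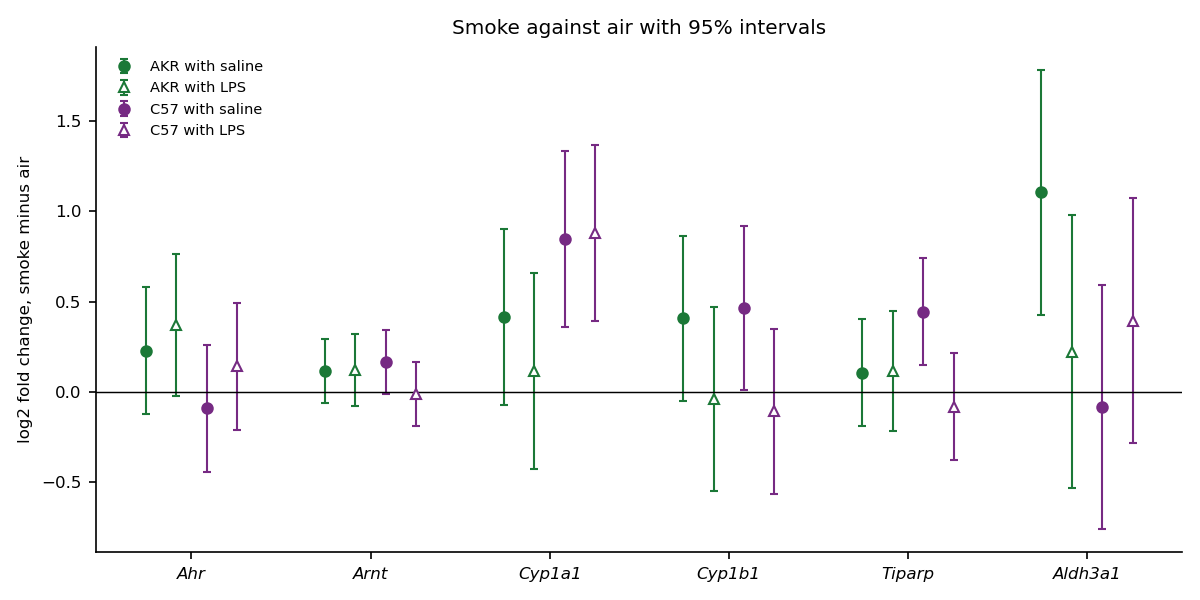
Log2 fold change of smoke against air (vertical axis) of the 6 tested genes, with 95% intervals from the fit. In C57, Cyp1a1 is at 0.85 with saline and 0.88 with LPS, in AKR at 0.41 and 0.12, and Aldh3a1 is at 1.11 in AKR with saline. Without the array labelled C57 smoke LPS 3, the C57 value of Cyp1a1 with LPS is 0.53. No difference of the smoke response between strains passed for these genes.

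The difference of the smoke response between strains was tested as an interaction. With saline, Aldh3a1 responded more in AKR than in C57 by 1.19 ± 0.46 (adjusted p = 0.872, limma), which does not pass, and by 1.32 ± 0.50 without both C57 arrays that go against their labels. Cyp1a1 responded less in AKR by the fitted value, -0.44 ± 0.33 with saline (95% interval -1.13 to 0.25) and -0.76 ± 0.35 with LPS (adjusted p = 0.437, limma). The values of Tiparp with saline differed by -0.34 ± 0.20, and by -0.21 ± 0.19 without both arrays. Without both arrays the Cyp1a1 value was -0.52 ± 0.28 with saline and -0.41 ± 0.30 with LPS. Between instillations, the smoke response of Tiparp in C57 was smaller with LPS than with saline by -0.53 ± 0.20 (adjusted p = 0.654, limma), a value of -0.26 without both arrays, and that of Aldh3a1 in AKR by -0.88 ± 0.49 (adjusted p = 0.737, limma). In each of these 4 interaction tests 0 of 6 genes passed, where 0% of all genes did, and the unadjusted p was under 0.05 for 5.18%, 11.4%, 6.75% and 7.35% of genes (strain by smoke with saline and with LPS, smoke by LPS in AKR and in C57). 

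The mean of the 4 smoke comparisons was added after the data were seen. Cyp1a1 was higher after smoke by 0.56 ± 0.12 (1.48-fold, adjusted p = 0.0942, limma), place 17 of 14705 genes by p. It does not pass as such. The gene is dim on AKR arrays and on most C57 air arrays, so this fold is not exact. Cyp1a1 entered the test only through C57 arrays, most of them smoke arrays, so its place and its passes give no further support. Without both C57 arrays that go against their labels it was 0.50 ± 0.10 and passed (adjusted p = 0.0392, limma), and over 31 alternatives it was 0.48 to 0.65 with adjusted p of 0.00352 to 0.315, passing in 3, the others being without C57 smoke LPS 1 (0.65) and without C57 smoke LPS 3 (0.48). All 6 genes had positive means, among them Aldh3a1 at 0.41 ± 0.17 and Arnt at 0.10 ± 0.04. In the mean 0 of 6 genes passed, where 9 genes (0.0612%) did, and 3 of 6 had an unadjusted p under 0.05 (limma), where 10.5% of genes did. Without both C57 arrays, 2 of 6 did, Cyp1a1 and Tiparp, where 12.7% of genes did.

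In room air without instillation, the Cyp1a1 signal was lower in AKR than in C57 lungs, on arrays of the same set. It had 5.33, 5.17 and 5.59 on the AKR arrays titled 6 weeks, against 6.79, 6.34 and 6.29 on the C57 arrays. All AKR values lay below all C57 values, and Cyp1a1 averaged 5.37 ± 0.21 in AKR and 6.47 ± 0.27 in C57 (SD, n = 3 each; adjusted p = 0.00786, limma). The difference was -1.10 ± 0.24 on the log2 scale. The AKR values lie at the 19.2 to 24.7 percentile of their arrays, with no measure of background, so no exact fold can be given. Cyp1a1 also entered the test only through C57 arrays, the group in which it is high, so its pass among the tested genes gives no further support. Without any filter its adjusted p was 0.00901 (limma). The call was lost without C57 room air 1 (-0.95, adjusted p = 0.0558, limma) and without AKR room air 2 (-1.01, adjusted p = 0.0506, limma). With the AKR arrays titled 3 weeks, 5.39 and 5.61, which belong to the other set, it was -0.97 ± 0.26 (adjusted p = 0.0160, limma). Sequence differences between the strains under the probes were not examined here, so a lower signal of the probe set and a lower transcript level cannot be told apart.

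Ahr had 10.50, 10.27 and 10.30 on the AKR room air arrays, against 11.01, 10.51 and 10.56 on the C57 arrays. The groups lay apart narrowly, and the difference was -0.34 ± 0.17 (adjusted p = 0.461, limma). Aldh3a1 had 7.61, 8.0 and 7.28 in AKR, against 7.80, 8.69 and 8.83 in C57, with overlap through C57 room air 1. Its difference was -0.81 ± 0.33 (adjusted p = 0.283, limma), and the club cell marker mean was also lower on that C57 array (-0.25) than on the other two (0.75 and 0.73), a relation that was not tested. Cyp1b1 differed by -0.42 ± 0.22, Arnt by -0.09 ± 0.09 and Tiparp by 0.07 ± 0.14. Of the 6 genes 1 passed and was lower, where 396 genes (2.69%) passed and 1.39% of all genes were lower. In 2 of 6 the AKR arrays lay below the C57 arrays without overlap, a pattern of 9.86% of all genes.

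With saline after room air, strain and array set coincide and cannot be told apart, and the median gene was lower in AKR by 0.16. Ahr had 9.90, 9.91 and 10.10 in AKR, against 10.80, 10.83 and 10.90 in C57, a gap wider than the spread of either group (-0.87 ± 0.17, adjusted p = 3.64e-04, limma). Arnt differed by -0.46 ± 0.09 (adjusted p = 2.14e-04) and Cyp1a1 by -0.86 ± 0.24 (adjusted p = 0.00624), both by limma. The AKR values of Cyp1a1 are dim here too, and it entered the test through C57 arrays. These 3 of 6 genes passed and were lower, where 38.4% of all genes passed and 31.1% were lower, and their groups did not overlap, as for 42.7% of all genes. With each array centred on its median Ahr was at -0.67 and passed and Arnt at -0.27 and did not (adjusted p = 0.0512, limma), and with quantile normalization over all arrays Cyp1a1 at -0.61 did not (adjusted p = 0.0544, limma).

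**Figure D5:**
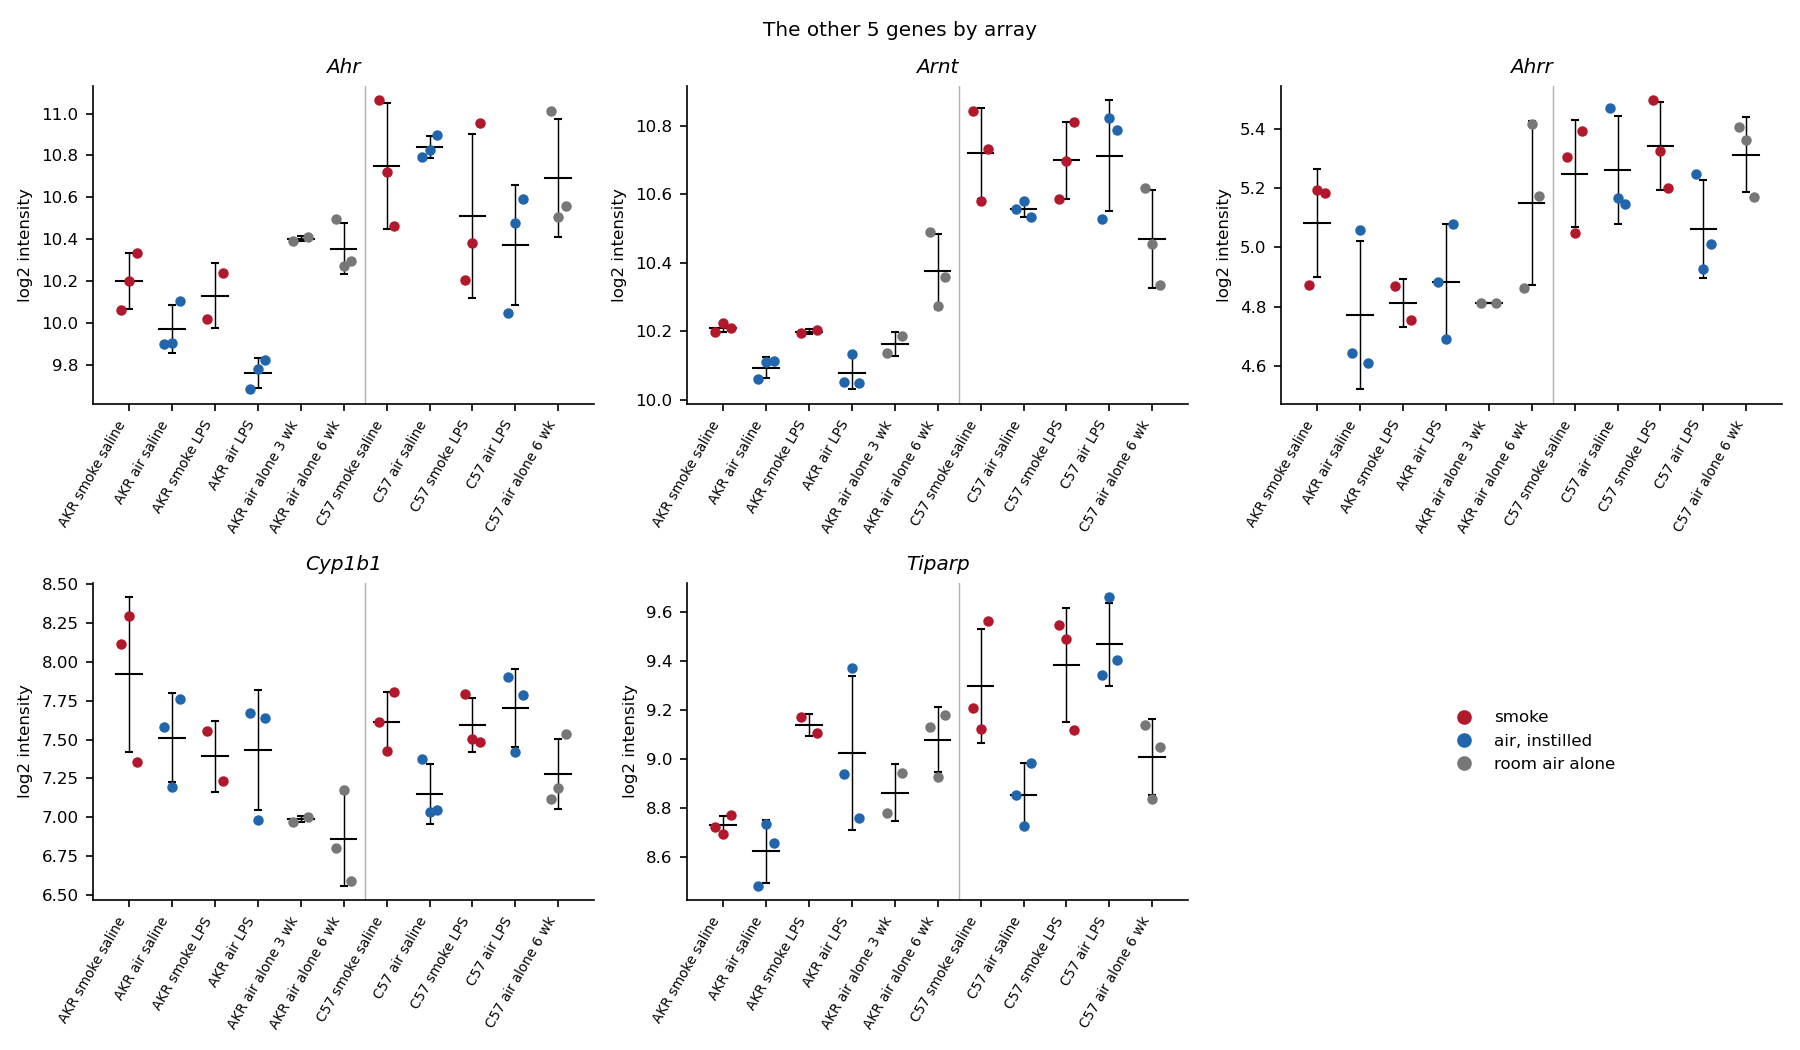
Log2 intensity (vertical axis) of Ahr, Arnt, Ahrr, Cyp1b1 and Tiparp on each array by group, with points for arrays and a black line and bar for mean and SD. Arnt is lower on all AKR instilled arrays (10.05 to 10.22) than on all C57 instilled arrays (10.53 to 10.85), which belong to different array sets, and Ahrr lies between 4.61 and 5.50 throughout.

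Among all 11 groups, mean Cyp1a1 was highest in C57 smoke saline (7.12 ± 0.33), followed by C57 smoke LPS (6.62 ± 0.72), C57 room air alone (6.47 ± 0.27) and C57 air saline (6.27 ± 0.28). The C57 smoke LPS mean includes 7.32 on the array labelled smoke LPS 3, against 5.89 and 6.65 on the others. The place of that group in the order rests on that array. Neighbours in this order differed by less than the larger SD of each pair. C57 air LPS (5.74 ± 0.22) stood lower and overlapped in intensity with AKR smoke saline (5.82 ± 0.12), the highest AKR group. These groups belong to different array sets. As percentiles of their own arrays, C57 air LPS was at 26 to 30.3 and AKR smoke saline at 31.2 to 35.1, without overlap. The other AKR groups had means of 5.11 to 5.50. Mean Ahr was highest in C57 air saline (10.84 ± 0.05) and lowest in AKR air LPS (9.76 ± 0.07). Those groups are of different array sets too, so strain and set cannot be told apart between them.

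LPS was set against saline after room air for the same genes, and Tiparp in C57 was the one that passed. Tiparp rose in C57, with 9.34, 9.66 and 9.40 on LPS arrays, against 8.85, 8.73 and 8.98 on saline arrays. All LPS arrays lay above all saline arrays, and the rise was 0.61 ± 0.14 (1.53-fold, adjusted p = 0.00781, limma), passing in 15 of 15 alternatives. In AKR, Tiparp had 8.94, 9.37 and 8.76 with LPS, against 8.48, 8.73 and 8.65 with saline, also apart, and its difference of 0.40 ± 0.14 did not pass (adjusted p = 0.0565, limma). It passed in 4 of 15 alternatives.

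Aldh3a1 had 8.13, 7.09 and 8.27 on AKR LPS arrays, against 8.70, 8.31 and 9.24 on AKR saline arrays, without overlap (-0.92 ± 0.33, adjusted p = 0.0563, limma; passing in 3 of 15 alternatives). Of the 7 club cell markers 3 fell with LPS in each strain, where 7.41% of all genes fell in AKR and 4.3% in C57, and their part in that value was not tested. Cyp1a1 differed by -0.53 ± 0.24 in C57 (adjusted p = 0.125) and -0.30 ± 0.24 in AKR (adjusted p = 0.411), Ahr by -0.47 ± 0.17 in C57 (adjusted p = 0.0624) and -0.21 ± 0.17 in AKR, all by limma. Cyp1b1 differed by 0.55 ± 0.22 in C57 and -0.08 ± 0.22 in AKR, and Arnt by 0.16 ± 0.09 and -0.02 ± 0.09. In AKR 0 of 6 genes passed, where 16.9% of all genes did (9.45% higher and 7.41% lower) and 30.6% had an unadjusted p under 0.05, as did 2 of these 6 (limma). In C57 1 of 6 passed, where 15.7% of all genes did, 11.5% higher and 4.3% lower. Without both C57 arrays that go against their labels, which enter only the estimate of the spread here, Ahr (adjusted p = 0.0152, limma), Cyp1a1 (0.0476) and Tiparp passed in C57, and Tiparp (0.0231) in AKR. Calls among all genes moved over the alternatives too, from 1121 to 3367 in C57 (2316 as reported) and from 1368 to 3333 in AKR (2479). The added calls are therefore not read as particular to this pathway.

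Fixed lists around the pathway give its surroundings. Of 12 tested chaperones and coregulators of the receptor, 0 passed for smoke in any of the 4 comparisons, and the most changed by value in AKR saline lungs was Hsp90aa1, the chaperone gene, at -0.42 ± 0.15 (adjusted p = 0.487, limma). Of 7 tested relatives of the bHLH-PAS family 0 passed, with the clock gene Arntl at -1.05 ± 0.27 in AKR saline lungs (adjusted p = 0.170, limma). Of 9 tested NRF2 targets 0 passed, with the cystine transporter Slc7a11 at 2.69 ± 0.82 there (6.47-fold, adjusted p = 0.324, limma), all 9 positive and a median of 0.50, against a median of 0.01 in C57 saline lungs. Of 7 other aldehyde dehydrogenases 0 passed for smoke, with the retinal dehydrogenase Aldh1a2 at -1.14 ± 0.29 (adjusted p = 0.175, limma) in AKR saline lungs. Of 4 tested P450 genes of the lung outside this pathway, 0 passed.

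With LPS, where 16.9% of all genes passed in AKR and 15.7% in C57, genes of several lists passed. All 5 other PARP-family genes listed as related to Tiparp (Parp9, Parp10, Parp12, Parp14 and Zc3hav1) rose in both strains. They include antiviral genes induced by interferon. Parp14 rose by 2.22 ± 0.34 in AKR (adjusted p = 1.57e-04, limma) and by 1.61 ± 0.34 in C57 (adjusted p = 0.00534, limma). Of the other targets of the receptor, 3 of 7 rose and 1 fell in AKR, and 2 rose and 2 fell in C57, where 9.45% of all genes rose and 7.41% fell in AKR, and 11.5% rose and 4.3% fell in C57. Ido1, a tryptophan-degrading enzyme whose products are ligands of the receptor, rose by 3.37 ± 0.60 in AKR and 2.62 ± 0.60 in C57, and Slc7a5, an amino acid transporter, by 1.03 ± 0.25 and 0.85 ± 0.25. Cyp2s1, a P450 gene, fell by 0.80 in AKR and by 0.87 in C57, and Nqo1 fell by 0.76 in C57. Relb, a partner of the receptor in NF-kB signalling, rose by 1.20 ± 0.24 in AKR and 1.07 ± 0.24 in C57, and Hif1a, which also pairs with Arnt, by 1.40 ± 0.23 and 0.93 ± 0.23. Of the other aldehyde dehydrogenases 3 of 7 fell in AKR and 2 of 7 in C57, Aldh1a1 and Aldh1a7 in both, beside the same 7.41% and 4.3% of all genes.

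In room air alone, where 2.69% of all genes passed between strains, 1 of the 9 NRF2 targets did, Gclc, a subunit of the enzyme that starts glutathione synthesis, which fell by 0.69 in AKR relative to C57 (adjusted p = 0.0130, limma). None of the 12 chaperones and coregulators, 7 family relatives, 7 other targets of the receptor, 5 PARP-family genes, 7 aldehyde dehydrogenases and 4 lung P450 genes passed there.

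Patterns across arrays were described after subtracting the mean of each array's strain and instillation (and titled weeks where there was none), which leaves the smoke difference in. Over 31 arrays, which share sets and groups, the members most alike were Ahr and Arnt (Pearson r = 0.67), Cyp1b1 and Aldh3a1 (0.63) and Arnt and Cyp1a1 (0.51). Cyp1a1 had r = 0.06 with Cyp1b1 and 0.08 with Aldh3a1. The genes most like Cyp1a1 were Mia2 (0.69), Apcdd1 (0.68), Tat (0.68), Alb (0.68) and Cyp26b1 (0.66), of which Alb and Tat are among the 10 liver genes that were high on a single C57 array. Those most like Ahr were Acy3 (0.85), Mamld1, Cdkn2c, Fam174b and Klhl24 (0.82 to 0.83). Both C57 arrays that go against their labels are included in all these correlations, and their part in them was not tested.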

How the data were processed

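Lung RNA was hybridised to 1-colour arrays of 35556 probe sets. The deposited values are log2 intensities made by the authors with RMA, per the submitters' processing notes; how the arrays were grouped for it is not given in the sources used here, and the medians show 18 arrays in one distribution and 13 in another. Of the probe sets, 21789 carry 1 gene symbol, 1621 several and 12146 none, and each gene was represented by its probe set of highest mean, which gave 19938 genes. No background signal was used, so folds of dim genes are not exact. The number of arrays limits the precision.

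Genes that 3 or more arrays put over the 40th percentile of their own probe sets were tested (14705). All 31 arrays entered 1 fit of 11 group means in limma 3.58.1 with statmod 1.5.0 (R 4.3.3), with 20 residual degrees of freedom, two-sided moderated tests and Benjamini-Hochberg adjustment over all genes tested; the threshold was an adjusted p of 0.05. The fit was tested on simulated data. Figures were drawn with matplotlib 3.10.9 (Python 3.11.15).

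The members and the gene lists were chosen with earlier results of these data known. The 7 members were named in every comparison; of each other list, the genes past the threshold and up to 3 with the largest change could be named, as could the 5 genes most correlated with Cyp1a1 and with Ahr. The labels do not say that replicate numbers pair the samples. Deviations of same-numbered arrays of different groups correlated at a mean of 0.0054, from -0.773 to 0.549. A mean over all groups cannot exclude a pairing within some of them. Alternatives were other normalizations, filters, probe set rules, moderation, samples in the fit, a replicate block, and arrays left out.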

Additional observations from a re-analysis of the deposited data

How the results depend on the processing

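The smoke comparisons called 0 of the 6 tested genes under every alternative run, except in C57 with LPS (0 to 1 over the fits that leave out 1 array) and in the mean of the 4 comparisons (0 to 1 over those fits, and 1 without both C57 arrays that go against their labels). Between strains in room air, 1 gene passed, against 0 with a filter at the 60th percentile, which leaves Cyp1a1 untested, 2 with the AKR arrays titled 3 weeks, and 0 to 1 with 1 array left out. The gene added with the AKR arrays titled 3 weeks, which belong to the other array set, was Arnt at -0.31 (adjusted p = 0.0350, limma). For LPS in AKR, 0 passed, against 2 with quantile normalization, 1 with the filter at the 60th percentile, 1 without both C57 arrays, and 0 to 2 with 1 array left out. For LPS in C57, 1 passed, against 2 with quantile normalization, 3 with only the groups compared and 3 without both C57 arrays. The count of all genes passing also moved over the alternatives, from 1121 to 3367 for LPS in C57. Changes in these member counts are therefore not read as particular to the pathway. The replicate block rests on numbers that the labels do not describe as a pairing. With the block no call changed: 1 of 6 in room air (Cyp1a1 at -1.10, adjusted p = 0.0126, limma), 3 of 6 between strains with saline, 1 of 6 for LPS in C57 (Tiparp at 0.61, adjusted p = 0.0113, limma), and 0 elsewhere.

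No value that passed turned its sign, and 26 values that had not passed did. Cyp1b1 for smoke in AKR with LPS was 0.0014 with quantile normalization and 0.031 with arrays centred on their medians. Without both C57 arrays, Ahr for smoke was 0.052 with saline and -0.079 with LPS, and Tiparp with LPS was 0.050. Tiparp between strains in room air was -0.15 with the AKR arrays titled 3 weeks. With 1 array left out, Tiparp between strains in room air ranged from -0.016 to 0.15. For smoke in C57 with saline, Ahr ranged from -0.25 to 0.052 and Aldh3a1 from -0.21 to 0.097. For smoke in C57 with LPS, Ahr ranged from -0.079 to 0.30, Arnt from -0.11 to 0.042 and Tiparp from -0.16 to 0.050. For smoke in AKR with LPS, Cyp1b1 ranged from -0.26 to 0.12, Aldh3a1 from -0.15 to 0.54, Tiparp from -0.016 to 0.29 and Cyp1a1 from -0.051 to 0.28. Cyp1b1 for LPS in AKR ranged from -0.24 to 0.14. The cause was not tested.

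The count of all genes passing ranged over the alternatives from 1 to 79 for smoke in AKR with saline (5 as reported), 0 to 435 in AKR with LPS (1), 0 to 16 in C57 with LPS (0), 228 to 1983 between strains in room air (396), 1368 to 3333 for LPS in AKR (2479), 1121 to 3367 for LPS in C57 (2316) and 7 to 39 for the mean of the smoke comparisons (9). Between strains with saline after room air that count ranged from 4407 to 7598 (5640 as reported). Ahrr and, on AKR arrays, Cyp1a1 lie among dim probe sets, which limits what their values can show. Cyp1a1 was also dim on most C57 arrays of room air. It was above the 40th percentile on 0 of 3 of air LPS, 1 of 3 of air saline and 1 of 3 of room air alone.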
